A study of Mus musculus with 6 samples.

Results

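The R-spondins, their Lgr receptors and a pair of membrane ubiquitin ligases were followed in neonatal mouse dermal fibroblasts with and without stabilized β-catenin. The 9 genes, Rspo1 to Rspo4, Lgr4 to Lgr6, Rnf43 and Znrf3, were chosen by name for their roles, out of 41126 genes in the all-gene table. R-spondins are secreted proteins that bind an Lgr receptor together with Rnf43 or Znrf3 and thereby remove the ligase from the cell surface. Rnf43 and Znrf3 otherwise tag Frizzled receptors for degradation, so that R-spondins raise the sensitivity of a cell to Wnt ligands, and both ligases and Lgr5 are known feedback targets of β-catenin in other tissues. In skin, R-spondins are made by fibroblasts of the dermis and hair follicle, and Lgr5 and Lgr6 are best known from epithelial stem cells of the follicle.

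RNA-seq was performed on 3 control and 3 GOF (gain of function) cultures. Fibroblasts were grown from the ventral skin of postnatal day 4 mice on a mixed CD1 and C57Bl6 background, and cells of each animal were cultured separately. GOF cultures carried Ctnnb1 Δex3/+, an allele that makes a stabilized β-catenin once Cre removes exon 3, and received Adenovirus-Cre. Control cultures received Adenovirus-GFP, so that the virus and β-catenin cannot be told apart between the groups. The labels give the control genotype as +/+, although in the paper the control cells carry this transgene too, and the treatment field of the labels names Adenovirus-Cre for every culture. The 6 cultures came from 4 animals, 2 of them present in each group. Control replicate 0 was paired by animal with GOF replicate 2, and Control replicate 2 with GOF replicate 0. Cultures of the same animal start from the same genotype. By the animal labels, Control replicates 0 and 2 therefore carried Ctnnb1 Δex3/+ before infection, in spite of their +/+ label. The animal of the remaining control culture gave no GOF culture, and its genotype was not tested. Cre came from the virus and not from a promoter of a given cell type. According to the paper, cells were infected after passaging and RNA was taken a few days later, so later times were not sampled.

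The libraries held between 35980831 and 42834467 fragments. Ctnnb1 was at 262, 285 and 254 FPKM (fragments scaled by transcript length and library size) in the controls and at 246, 297 and 248 FPKM in GOF libraries, over the whole gene, since exons were not read separately. Axin2, a feedback gene that is used as a readout of β-catenin, was at 0.136 to 0.177 FPKM in controls and at 14.4 to 19.2 FPKM in GOF libraries. All 8 dermal fibroblast markers had a mean of at least 1 FPKM, with summed levels of 3039 to 3879 FPKM in controls and 2525 to 3129 FPKM in GOF libraries. Of these, Col1a2 and Dcn, a collagen chain and a proteoglycan, were called lower, Dcn going from 982 to 1175 FPKM to 251 to 450 FPKM. Vim was not called but went from 719 to 866 FPKM to 1204 to 1506 FPKM. Pdgfra, Col1a1, Dpt, Lum and Thy1 overlapped between groups. Vim made up a large part of the GOF sums, so they do not show that the other markers kept their level. None of 8 keratinocyte markers reached a mean of 1 FPKM in either group (summed 0.419 to 0.63 FPKM in controls and 0.507 to 0.575 FPKM in GOF libraries), and Krt14 and Krt1 had at most 3 fragments in each library. The summed skeletal muscle markers were at 23.3 to 27.6 FPKM in controls and 138 to 173 FPKM in GOF libraries, mostly through Acta1, while Myod1, Pax7 and Ckm had at most 3 fragments in each library. The summed adipocyte markers were at 7.18 to 8.91 FPKM in controls and 1.8 to 3.27 FPKM in GOF libraries, through Fabp4, while the other 4 markers had at most 3 fragments in each library. Summed levels overlapped between groups for endothelium (4.9 to 5.21 and 3.3 to 7.06 FPKM, 6 markers), macrophages (10.8 to 19.4 and 8.6 to 24.9 FPKM, 6 markers) and pericytes or smooth muscle (14 to 24 and 16.9 to 31.6 FPKM, 5 markers), whereas those of Schwann cells and melanocytes were 6.43 to 6.98 and 4.77 to 6.01 FPKM (6 markers). Single markers called among these were Kdr and Csf1r, which rose, and Tek, which fell. The part of other cell types in the results below was not tested.

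Genes were called when the adjusted p (edgeR quasi-likelihood test, Benjamini-Hochberg over 15462 genes) was under 0.05 and the fold change over 2. By this rule 4 of the 9 genes were called, where 12.3% of all genes tested were. The ligands Rspo2 and Rspo3 and the receptor Lgr4 fell in GOF libraries, where 5.64% of genes did, and the ligase Rnf43 rose, where 6.69% of genes did. Lgr5, Lgr6 and Znrf3 were tested and not called, and Rspo1 and Rspo4 had too few fragments to be tested. Rnf43 passed the filter on low counts only through its GOF libraries, so a difference between the groups was a condition of its being tested. In bulk RNA, fewer cells that express a gene and less RNA per cell cannot be told apart.

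**Figure D1:**
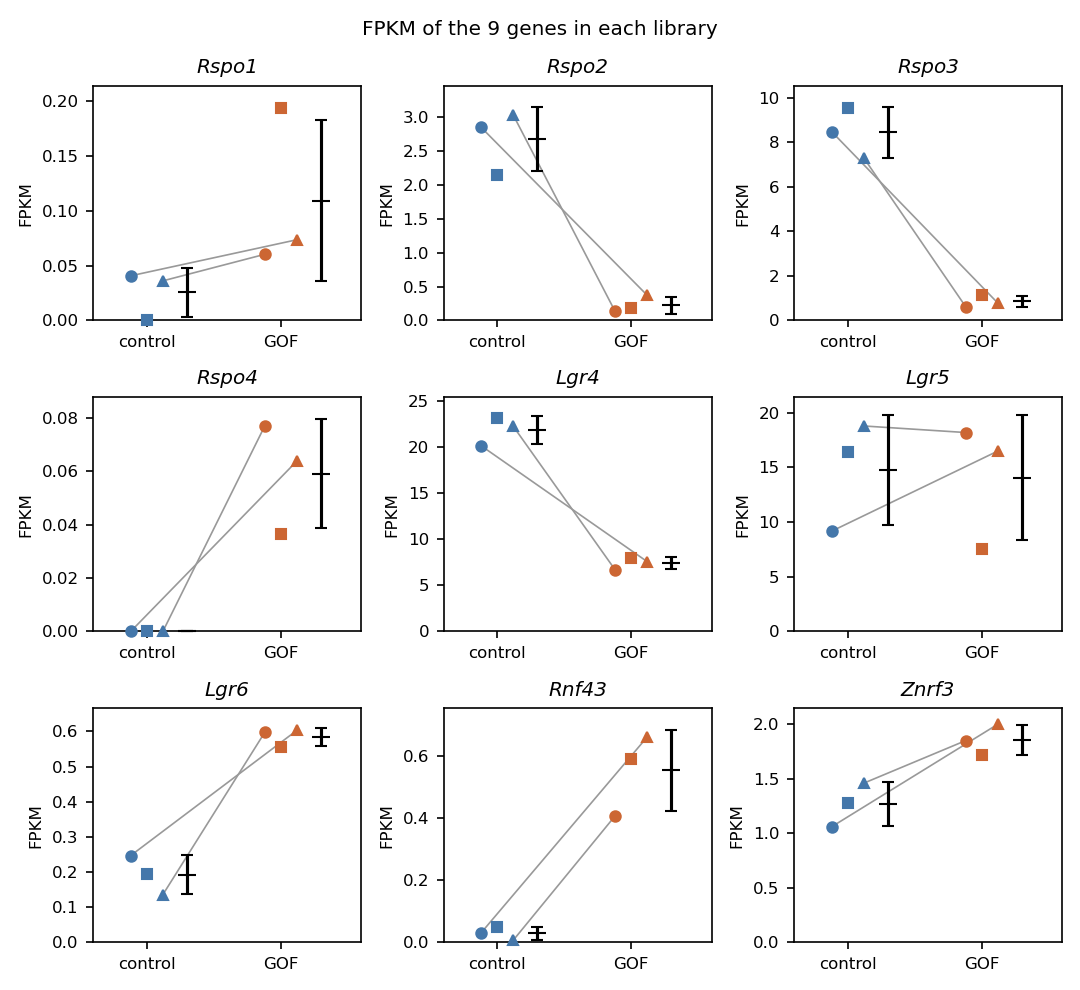
FPKM of each of the 9 genes (vertical axis, linear, from 0) in the 3 control (blue) and 3 GOF (orange) libraries; circles, squares and triangles are replicates 0, 1 and 2, grey lines join cultures of 1 animal, and black marks give the mean ± SD. Rspo2, Rspo3 and Lgr4 are lower in every GOF library, Rnf43 is higher in every GOF library, and Lgr5 spans 7.51 to 18.2 FPKM in GOF and 9.17 to 18.8 FPKM in control libraries.

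RefSeq promoter windows on GRCm38.p6 were matched by symbol for 5 of the 9 genes, Rspo1, Rspo4, Lgr4, Lgr6 and Rnf43, which has a pair of windows. Rspo2, Rspo3, Lgr5 and Znrf3 had no entry. The 250 bases before the start are shown for Lgr4 and Rnf43, the called genes with an entry, in the direction of transcription and with each CG dinucleotide in capitals. The windows are chr2:109917397-109917646 for Lgr4 and chr11:87662837-87663086 and chr11:87699647-87699896 for Rnf43, all on the plus strand. In GENCODE M21 the Lgr4 window ends at the base before the gene, and both Rnf43 windows lie within the span of the gene (87662722 to 87735539).
Lgr4: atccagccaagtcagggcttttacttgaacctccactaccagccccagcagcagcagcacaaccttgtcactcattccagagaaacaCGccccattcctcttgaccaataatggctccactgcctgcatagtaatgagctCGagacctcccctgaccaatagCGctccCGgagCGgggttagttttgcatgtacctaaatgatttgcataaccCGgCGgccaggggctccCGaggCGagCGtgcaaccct
Rnf43 first window: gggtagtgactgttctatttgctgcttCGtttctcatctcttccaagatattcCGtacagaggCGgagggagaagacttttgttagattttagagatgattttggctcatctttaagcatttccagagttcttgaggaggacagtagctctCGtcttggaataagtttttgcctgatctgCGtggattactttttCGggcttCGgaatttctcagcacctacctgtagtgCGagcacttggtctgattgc
Rnf43 second window: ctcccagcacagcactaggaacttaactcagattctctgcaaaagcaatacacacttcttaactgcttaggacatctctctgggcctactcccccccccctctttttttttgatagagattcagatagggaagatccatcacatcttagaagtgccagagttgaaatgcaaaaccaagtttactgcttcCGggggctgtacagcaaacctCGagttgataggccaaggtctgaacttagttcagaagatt
The Lgr4 window held 10 CG dinucleotides and a GC content of 55.6%, the first Rnf43 window 8 and 44.4%, and the second Rnf43 window 2 and 45.2%. The median over 32851 windows was 6 CG dinucleotides. The windows of Rspo1, Rspo4 and Lgr6 were richer, with 22, 24 and 16 CG dinucleotides. The core letters recognised by Tcf and Lef factors, the DNA-binding partners of β-catenin, were searched on both strands as CTTTGAA and CTTTGAT, and also as CTTTGTA and CTTTGTT. They share all but their last letters, so a match counts under only 1 of them on a strand. None of the 6 windows held any of them, where 14.8% of all windows held at least 1, which says only that these letters are not in these bases.

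The question for the ligands was whether R-spondin transcripts differ once β-catenin is stabilized. Rspo3, a ligand that potentiates Wnt signaling in mesenchyme and endothelium, lies on chromosome 10 from 29452416 to 29535867 on the minus strand. It was at 8.48, 9.56 and 7.3 FPKM in control replicates 0 to 2 and at 0.625, 1.14 and 0.785 FPKM in GOF replicates 0 to 2. Every GOF library lay below every control library, and the highest GOF library was still well under the lowest control. Its mean fell from 8.45 ± 1.13 to 0.849 ± 0.262 FPKM (SD, n = 3 each), 9.95-fold, with a log2 fold change of -3.30 ± 0.28 (SE) and an adjusted p of 0.000452 (edgeR). The log2 fold change stayed between -3.65 and -3.12 when each library was left out in turn. In the 2 animals with a culture in both groups, the log2 ratio of GOF to control FPKM was -3.43 and -3.55. In GENCODE M21, Gm20276 on the same strand and Gm48159 on the opposite strand overlap Rspo3. Neither had a value in the all-gene table, so their reads cannot be separated from those of Rspo3.

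Rspo2, a ligand known from hair growth and limb development, lies on chromosome 15 from 43020794 to 43170826 on the minus strand. It was at 2.85, 2.14 and 3.03 FPKM in controls and at 0.133, 0.179 and 0.37 FPKM in GOF libraries. The groups did not overlap, and GOF replicate 2 was the highest of the GOF libraries. The mean fell from 2.67 ± 0.47 to 0.227 ± 0.126 FPKM (SD, n = 3 each), 11.8-fold, with a log2 fold change of -3.57 ± 0.37 (SE) and an adjusted p of 0.000945 (edgeR). It ranged from -4.06 to -3.30 with each library left out. The counts behind these values fell from 289 to 407 fragments per control library to 18 to 48 per GOF library. Within the 2 animals, the log2 ratio was -2.94 and -4.51.

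Rspo3 was the more abundant of the pair in every library. The ratio of Rspo3 to Rspo2 FPKM was 2.98, 4.47 and 2.41 in controls and 4.71, 6.34 and 2.12 in GOF libraries, so that the ranges overlapped. Among all genes tested, the mean level of Rspo3 exceeded 56.5% of genes in controls and 21.1% in GOF libraries, and that of Rspo2 exceeded 35.4% and 7.5%.

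Rspo1 and Rspo4 were near the limit of detection. Rspo1, on chromosome 4 from 124986430 to 125009099, had 3, 0 and 3 fragments in controls and 5, 15 and 1 in GOF libraries, and these ranges overlap. Its FPKM was 0.0407, 0 and 0.0361 in controls and 0.0603, 0.194 and 0.0736 in GOF libraries, where the ranges do not overlap. GOF replicate 2 was listed at 0.0736 FPKM with a single fragment. The ratio of CPM (fragments scaled by library size alone) to FPKM was 0.317 for Rspo1 in that library, whereas it was 1.98 to 2.07 in the other libraries with a value. The summed counts, 6 against 21 fragments, gave a ratio of 3.39 after scaling by normalized library size (exact 95% interval 1.32 to 10.3, for counting error only). GOF replicate 1 alone held 15 of the 21.

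Rspo4, a ligand known from nail development, lies on chromosome 2 from 151842927 to 151874668. It had 0 fragments in each control library and 7, 3 and 6 in the GOF libraries (0.077, 0.0367 and 0.0639 FPKM). Against a floor of 3 fragments per control library, its mean in GOF libraries was at least 1.7-fold higher, although GOF replicate 1 was itself at the floor. A fit without the filter on low counts called Rspo4 (adjusted p = 0.0271 from edgeR) and not Rspo1 (adjusted p = 0.357 from edgeR). Rspo4 entered that fit only through its GOF libraries, so a difference was a condition of its being tested. GENCODE M21 places an antisense gene over Rspo1 (Gm12930) and Rspo4 (Rspo4os), and the sources used here do not state whether counting used the strand, so reads of the pairs cannot be separated. Rspo4os itself was at 0 to 0.0152 FPKM in controls and 0 to 0.0928 FPKM in GOF libraries.

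Summed over the 4 ligands, R-spondin FPKM was 11.4, 11.7 and 10.4 in controls and 0.895, 1.55 and 1.29 in GOF libraries. The mean of the sum was 11.1 ± 0.696 FPKM in controls and 1.24 ± 0.329 FPKM in GOF libraries (SD, n = 3 each), 8.95 times lower. Rspo3 made up 70.4% to 81.7% of the sum in controls and 60.7% to 73.5% in GOF libraries, and Rspo2 18.3% to 29.2% and 11.6% to 28.6%. Rspo1 and Rspo4 together supplied little of the sum in controls, where Rspo1 reached 0.358% at most, and in GOF libraries Rspo4 held 2.37% to 8.6%. Rspo1 held 6.74% and 12.6% in GOF replicates 0 and 1, and its 5.69% in GOF replicate 2 rests on the FPKM listed for a single fragment.

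**Figure D2:**
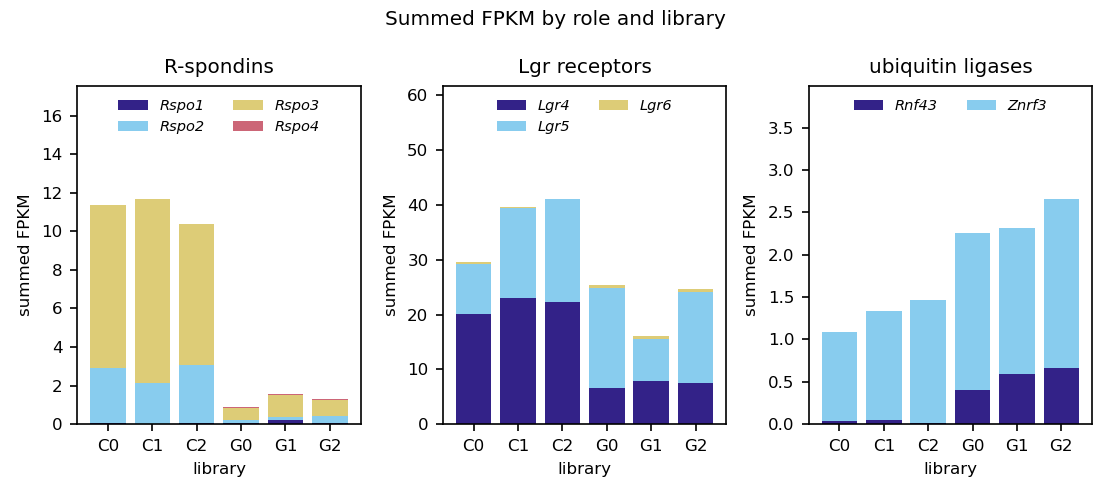
Summed FPKM (vertical axis, linear, from 0, with its own scale in each panel) of the R-spondins, the Lgr receptors and the ubiquitin ligases in control libraries C0 to C2 and GOF libraries G0 to G2, stacked by gene. The R-spondin sum is 10.4 to 11.7 FPKM in controls and 0.895 to 1.55 FPKM in GOF libraries, the Lgr sum is 29.5 to 41.1 and 16 to 25.5 FPKM, and the ligase sum is 1.09 to 1.47 and 2.26 to 2.66 FPKM.

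The receptors for these ligands did not move together. Lgr4, the most widely expressed R-spondin receptor, lies on chromosome 2 from 109917647 to 110014257 on the plus strand. It was at 20.1, 23.1 and 22.2 FPKM in controls and at 6.67, 7.94 and 7.55 FPKM in GOF libraries. The libraries of each group lay close together and the groups were far apart. Lgr4 fell from 21.8 ± 1.54 to 7.39 ± 0.653 FPKM (SD, n = 3 each), 2.95-fold, with a log2 fold change of -1.54 ± 0.12 (SE) and an adjusted p of 0.000347 (edgeR). Its range was -1.63 to -1.47 with each library left out, and the log2 ratios within the 2 animals were -1.41 and -1.73. Lgr4 was the most abundant of the 9 genes in controls, above 77.2% of genes tested, and stood above 54.1% of them in GOF libraries.

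Lgr5, the receptor best known as a stem cell marker and Wnt target, lies on chromosome 10 from 115450311 to 115587780 on the minus strand. It was at 9.17, 16.4 and 18.8 FPKM in controls and at 18.2, 7.51 and 16.5 FPKM in GOF libraries. A single library of each group, Control replicate 0 and GOF replicate 1, was low, and the groups overlapped. The means were 14.8 ± 5.02 and 14.1 ± 5.73 FPKM (SD, n = 3 each), with a log2 fold change of -0.05 ± 0.34 (SE) and an adjusted p of 0.938 (edgeR). The exact two-sided permutation p was 0.8. In the animal that gave Control replicate 0 and GOF replicate 2 the log2 ratio was 0.85, and in the animal that gave Control replicate 2 and GOF replicate 0 it was -0.05. With the animal as a block, edgeR gave 0.36 ± 0.18 (SE) and an adjusted p of 0.218, the smallest over the alternatives, which reached 0.997. A930009A15Rik, which overlaps Lgr5 on the opposite strand, was at 0 to 0.222 FPKM over all libraries.

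Lgr6, a receptor found in epithelial stem cells above the hair bulge, lies on chromosome 1 from 134983301 to 135105276 on the minus strand. It had 27, 28 and 37 fragments in controls and 53, 54 and 74 in GOF libraries, which correspond to 0.247, 0.195 and 0.136 FPKM and to 0.597, 0.555 and 0.603 FPKM. The groups did not overlap in either unit, but the order of the controls turned around, since Control replicate 2 had the most fragments and the lowest FPKM. The mean FPKM was 0.193 ± 0.0554 in controls and 0.585 ± 0.0261 in GOF libraries (SD, n = 3 each), 3.03 times higher, whereas the mean level was 0.789 and 1.46 in CPM, 1.86 times higher. The ratio of CPM to FPKM ranged from 3.04 to 6.76 in controls and from 2.13 to 2.87 in GOF libraries. On fragments, edgeR gave a log2 fold change of 0.93 ± 0.28 (SE), which was not called (adjusted p = 0.0515). On FPKM, limma on log2(FPKM + 0.1) gave a difference of 1.24 and called it (adjusted p = 0.00841), whereas limma on log2(FPKM + 1) gave 0.41 (adjusted p = 0.00604) and did not reach the fold threshold. Its adjusted p ranged from 0.00604 to 0.195 over the alternatives. In the animal that gave Control replicate 0 and GOF replicate 2, the log2 ratio was 1.29 in FPKM and 1.20 in CPM. In the animal that gave Control replicate 2 and GOF replicate 0, it was 2.13 in FPKM and 0.47 in CPM.

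**Figure D3:**
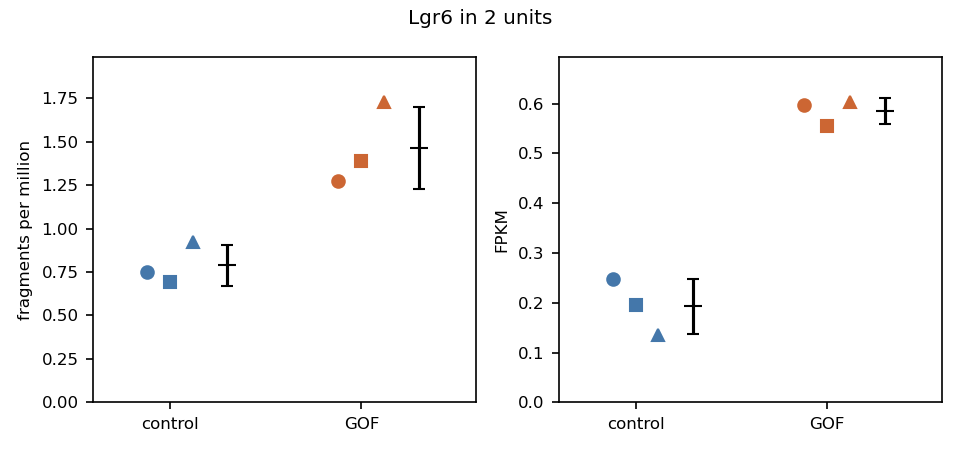
Lgr6 in each library as CPM, fragments scaled by library size (left) and as FPKM (right), both on linear axes from 0, with the mean ± SD in black; circles, squares and triangles are replicates 0, 1 and 2. GOF libraries are higher in both units, and the ratio of the means is 1.86 in CPM and 3.03 in FPKM.

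The makeup of the Lgr transcripts was compared within each library. Summed Lgr FPKM was 29.5, 39.8 and 41.1 in controls and 25.5, 16 and 24.6 in GOF libraries, with means of 36.8 ± 6.32 and 22 ± 5.23 (SD, n = 3 each). Lgr4 held 68.1%, 58.2% and 53.9% of it in controls and 26.2%, 49.6% and 30.6% in GOF libraries, and Lgr5 held 31%, 41.3% and 45.8% and 71.4%, 46.9% and 66.9%. Lgr4 was the larger in each control library, and Lgr5 the larger in GOF replicates 0 and 2. In GOF replicate 1, both were nearly equal in share. The log2 ratio of Lgr5 to Lgr4 FPKM was -1.13, -0.49 and -0.24 in controls and 1.45, -0.08 and 1.13 in GOF libraries, a difference of 1.45 in the means. That of Lgr6 to Lgr4 was -6.35, -6.89 and -7.34 in controls and -3.48, -3.84 and -3.65 in GOF libraries, a difference of 3.20. On fragments, a comparison chosen after seeing the data, the differences were 1.46 and 2.47, the second smaller than on FPKM. Neither pair overlapped between groups, and both exact two-sided permutation p-values were 0.1, the smallest possible with 3 against 3 libraries, and 0.1 after adjustment over the 2 pairs. The other 4 of 6 planned pairs included a gene with at most 3 fragments in some library and were not tested.

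Of the ligases that the R-spondins remove, Rnf43 was called higher and Znrf3 was not called. Rnf43 lies on chromosome 11 from 87662722 to 87735539 on the plus strand. It had 4, 7 and 1 fragments in controls and 68, 77 and 106 in GOF libraries, or 0.031, 0.0498 and 0.0073 FPKM and 0.407, 0.591 and 0.661 FPKM. Controls were near the limit of detection and every GOF library was well above it. Rnf43 rose from 0.0294 ± 0.0213 to 0.553 ± 0.131 FPKM (SD, n = 3 each), with a log2 fold change of 4.29 ± 0.52 (SE) and an adjusted p of 0.00178 (edgeR). It ranged from 3.82 to 4.88 with each library left out. The ratio of summed fragments, scaled by normalized library size, was 20.2 (exact 95% interval 11.4 to 39.7, for counting error only). Its mean level stood above only 16.4% of genes tested in GOF libraries, and a fit on log2(FPKM + 1), which understates changes at low levels, gave a difference of 0.59 (adjusted p = 0.00274 from limma), below the fold threshold. Over all alternatives its adjusted p was at most 0.0111. In the animal that gave Control replicate 0 and GOF replicate 2 the log2 ratio was 4.41, and in the other the control library held a single fragment against 68 in the GOF library. A same-strand intronic gene, 1110028F11Rik, was at 0 to 0.0774 FPKM in all libraries, and Gm25968, an snRNA gene on the opposite strand, was at 0 FPKM in all.

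Znrf3, the relative of Rnf43 with the same action on Frizzled, lies on chromosome 11 from 5276324 to 5444847 on the minus strand. It was at 1.06, 1.28 and 1.46 FPKM in controls and at 1.85, 1.72 and 2 FPKM in GOF libraries. The groups did not overlap, although the gap between the highest control and the lowest GOF library was small. The means were 1.26 ± 0.201 and 1.86 ± 0.136 FPKM (SD, n = 3 each), a ratio of 1.47, with a log2 fold change of 0.56 ± 0.17 (SE) and an adjusted p of 0.0537 (edgeR), so that neither threshold was passed. DESeq2 gave 0.57 with an adjusted p of 0.0145, still below the fold threshold, and the adjusted p ranged from 0.0145 to 0.155 over the alternatives. Within the 2 animals, the log2 ratio was 0.92 and 0.35.

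Znrf3 remained the main ligase transcript. It made up 97.1%, 96.2% and 99.5% of the summed FPKM of both ligases in controls and 82%, 74.5% and 75.1% in GOF libraries, and Rnf43 held 2.85%, 3.76% and 0.498% and then 18%, 25.5% and 24.9%. The sum was 1.29 ± 0.191 FPKM in controls and 2.41 ± 0.215 FPKM in GOF libraries (SD, n = 3 each), 1.86 times higher.

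**Figure D4:**
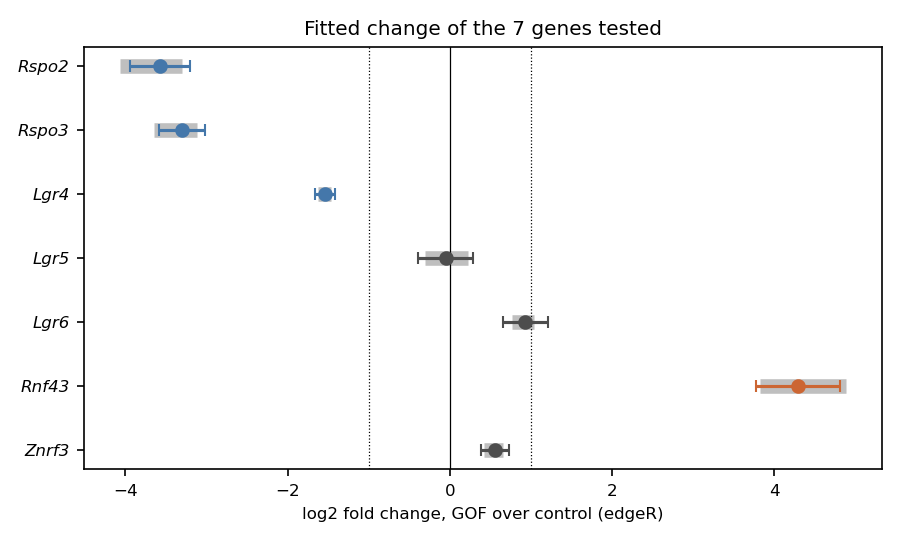
Log2 fold change of GOF over control (horizontal axis) of the 7 genes tested, from edgeR, with the standard error as a line and the range over fits that leave out each library as a grey bar; dotted lines mark a change of 1. Genes called lower are blue, the gene called higher is orange and genes not called are grey. The values run from -3.57 for Rspo2 to 4.29 for Rnf43, and only the range of Lgr5 spans 0.

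In order of mean FPKM, controls ran from Lgr4 through Lgr5, Rspo3, Rspo2, Znrf3, Lgr6, Rnf43 and Rspo1 to Rspo4. The libraries of Lgr5 and Rspo3 overlapped, as did those of Rnf43 and Rspo1 and of Rspo1 and Rspo4, while the other neighbours were separated. In GOF libraries the order was Lgr5, Lgr4, Znrf3, Rspo3, Lgr6, Rnf43, Rspo2, Rspo1 and Rspo4. Lgr5 and Lgr4 overlapped, as did Lgr6 and Rnf43, Rspo2 and Rspo1, and Rspo1 and Rspo4. Znrf3 stood below Rspo2 and Rspo3 in controls and above both in GOF libraries. In FPKM, 6 of the 7 genes tested did not overlap between the groups, where 39.5% of all genes tested did not. The exact two-sided permutation p was 0.1 for each of them, the smallest that 3 against 3 libraries allow.

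Other genes of the pathway were then read from lists of its parts. By the same rule, 6.69% of all genes tested rose and 5.64% fell, the shares beside which the counts of each list stand. Of 19 Wnt ligands, the proteins whose action R-spondins enhance, 8 had enough fragments to be tested, 6 rose and 1 fell. Wnt2 was at 3.14, 2 and 1.88 FPKM in controls and at 15.4, 18.3 and 29.3 FPKM in GOF libraries (log2 fold change 3.17, adjusted p = 0.000748 from edgeR). Wnt2b went from 0.178, 0.191 and 0.266 FPKM to 2.04, 2.02 and 1.29 FPKM (3.04, adjusted p = 0.000587 from edgeR), and Wnt5a, a ligand best known for signaling without β-catenin, from 12, 14.9 and 15.8 FPKM to 56.5, 40.7 and 44.8 FPKM (1.65, adjusted p = 0.000962 from edgeR). In all 3, which were named for the smallest adjusted p of the list, every GOF library exceeded every control. Such separation was partly given by that choice, and 39.5% of all genes tested did not overlap. The ligand that fell was Wnt16 (log2 fold change -2.54), chosen for mention after its value was seen. The median log2 fold change of the 8 ligands was 2.19, where that of all genes tested was -0.02.

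Of the 12 Frizzled receptors and Lrp co-receptors, which Rnf43 and Znrf3 clear from the surface, 11 were tested, 3 rose, 4 fell and 4 were not called, with a median of -0.67. Fzd4 fell most clearly, from 4.23, 6.36 and 6.52 FPKM to 0.689, 0.776 and 0.774 FPKM (log2 fold change -2.93, adjusted p = 0.000252 from edgeR). Fzd8 fell from 5.62, 7.71 and 7.46 FPKM to 2.4, 2.18 and 3.14 FPKM (-1.44, adjusted p = 0.00345 from edgeR). Fzd1 instead rose from 11.3, 20.9 and 20.7 FPKM to 48, 49 and 42.2 FPKM (1.37, adjusted p = 0.00532 from edgeR). The groups did not overlap in any of these 3 receptors, which were likewise named for the smallest adjusted p of the list. The number called was 4 without Control replicate 1 and 4 without GOF replicate 1.

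**Figure D5:**
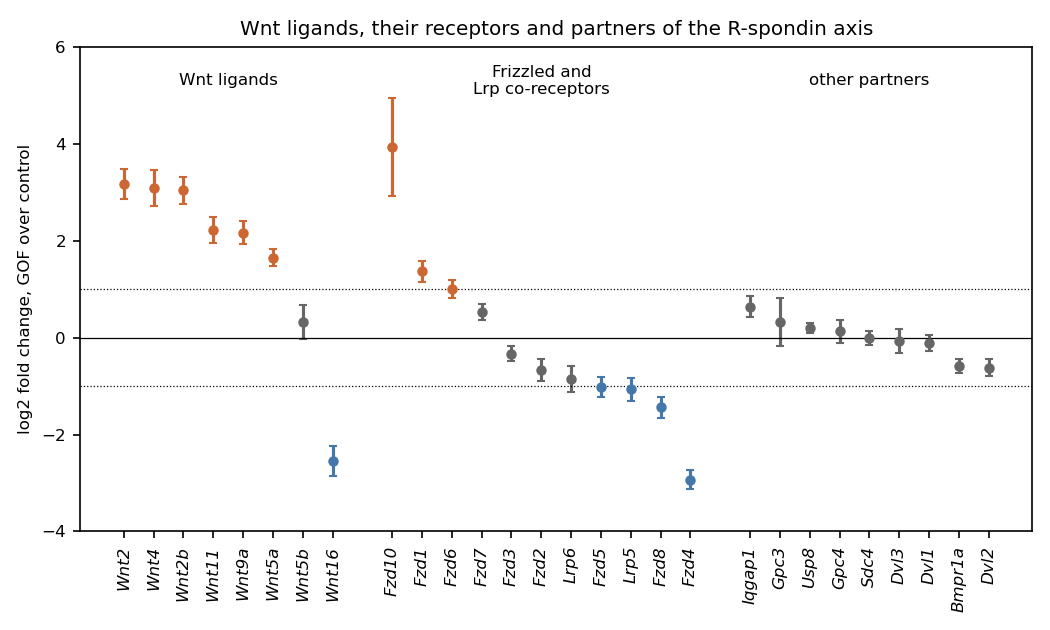
Log2 fold change of GOF over control (vertical axis, edgeR, points with standard error) of the Wnt ligands, the Frizzled and Lrp receptors and other partners of the R-spondin axis that were tested; orange and blue mark genes called higher and lower, grey marks genes not called, and dotted lines mark a change of 1. Of 8 ligands 6 are higher, the 11 receptors divide into 3 higher, 4 lower and 4 not called, and the 9 other partners lie between -0.62 and 0.64.

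Of 13 β-catenin feedback genes, the class to which Rnf43 and Znrf3 are usually assigned, 12 were tested, 11 rose and 1 fell. Of all genes tested, 6.69% rose and 5.64% fell. Axin2 had a log2 fold change of 6.98 ± 0.26 (SE) and an adjusted p of 4.95e-05 (edgeR), and Nkd2 and Apcdd1, both membrane-associated inhibitors of Wnt signaling, had 4.66 and 4.12 (adjusted p = 5.45e-05 and 0.00017 from edgeR). Nkd2 was at 4.72, 2.81 and 3.3 FPKM in controls and at 84.7, 93.5 and 85.7 FPKM in GOF libraries, and Apcdd1 at 2.29, 2.93 and 2.66 FPKM and at 59.1, 49 and 31.7 FPKM. Groups were widely separated in both, which were named for being among the smallest adjusted p of the list. The gene that fell was Dact1 (log2 fold change -1.18), named after its value was seen. The median was 4.44, or 3.97 with Dkk1 and Sp5, whose controls had at most 3 fragments each, set at their lower bounds of at least 14.1-fold and at least 5.85-fold. Genes low in controls could enter these lists only through GOF libraries, so counts and medians of tested genes lean toward a difference.

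Among partners that act on the same receptors or ligands, none of 9 (Dvl1, Dvl2, Dvl3, Usp8, Iqgap1, Sdc4, Gpc3, Gpc4 and Bmpr1a) was called by edgeR, although Bmpr1a, a BMP receptor that Rspo2 and Rspo3 can bind to, was at -0.58 on the log2 scale (adjusted p = 0.026, edgeR) and Dvl2, an adaptor through which the ligases reach Frizzled, at -0.62 (adjusted p = 0.0339, edgeR). At an unadjusted p under 0.05, 3 of the 9 passed with edgeR and 3 with DESeq2, and 0 were called by DESeq2 or limma. The share of all genes under this unadjusted p was not counted, so 3 of 9 is not read as a result about these partners. Their median was -0.01. Of 5 hormone and relaxin receptors related to the Lgr family, 2 were tested and Tshr, the thyrotropin receptor, rose from 0.032, 0.203 and 0.0509 FPKM to 0.525, 0.35 and 1.17 FPKM (log2 fold change 4.11, adjusted p = 0.00347 from edgeR). Its GOF libraries were uneven, with replicate 2 the highest.

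For each called gene, the genes with the most similar profile over the 6 libraries were found by Pearson r of log2(FPKM + 1) among 12379 or 12380 genes, as a description. The profile of Rspo2 was closest to those of Acss2, Sept6 and Lmo4 (highest r 0.9988), and that of Rspo3 to those of Serpinb9, Mcm10 and Car11 (highest r 0.9979). Lgr4 was closest to Accs, Pot1a and Abca8a (highest r 0.9979), and Rnf43 to Heatr1, Cxcr6 and C2 (highest r 0.9974). With 6 libraries in 2 groups, any gene that separates the groups evenly has a high r, and some of the libraries come from the same animal.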

How the data were processed

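RNA-seq was performed by the authors on dermal fibroblasts of 6 cultures (stranded, paired-end libraries). Reads were mapped to mm10 with TopHat, and fragments were assigned with Cuffdiff, as the paper and the submitters' processing notes name them, with versions not given in the sources used here. The estimated counts (raw fragments per gene and library) were deposited by the authors without scaling. The FPKM values were deposited after scaling by the authors for transcript length and library. Of the remaining per-library columns, 3 were not used, and the lncRNA table was not used here.

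Identifiers were matched to GENCODE M21 (97.9% of 41126 genes), and 32 genes with a failed estimate, none of them among the 9, were left out. Estimated counts, 4.95% of them not whole, were rounded and tested on the whole table in R 4.3.3 with edgeR 4.0.16 (TMM, filterByExpr, quasi-likelihood test, Benjamini-Hochberg adjustment). A gene was called when its adjusted p was under 0.05 and its fold change above 2, the thresholds of the paper. DESeq2 1.42.0 and limma 3.58.1 on log2(FPKM + 1) or log2(FPKM + 0.1) were alternatives, as were library totals, upper-quartile normalization, no filter, a minimum FPKM of 1 in 3 libraries, a replicate block and each library left out in turn. Single values were compared with an exact two-sided permutation test. Floors are 3 fragments per library, and intervals cover counting error only. The fitting script was tested on simulated data. Cultures that the labels assign to 1 animal deviated together from their group means (r = 0.46 and 0.408 over genes), while those sharing a replicate number did not (r = -0.41, 0.054 and -0.441). Deviations cancel out within a group of 3 libraries, so these values depend on each other and are not separate evidence. Cultures were paired by the animal in the labels and not by replicate number. No source states that the cultures are independent beyond the animal, and the 6 libraries come from 4 animals, which p-values without a block do not take into account.

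The 9 genes, the lists and the tests were chosen with earlier results of these data known. The rule for genes named besides the 9 took Ctnnb1, Axin2, up to 3 called genes of each list with the smallest adjusted p, and the 3 genes most similar in profile to each called gene with a mean of at least 0.5 FPKM in a group. Outside this rule, and after their values were seen, Wnt16, Dact1, Dkk1, Sp5, the uncalled partners and some cell type markers were named. Genes that overlap the 9 were named by position. Promoter windows came from RefSeq.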

Additional observations from a re-analysis of the deposited data

How the results depend on the processing

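Of 194 values recomputed under an alternative, 183 kept their direction and their side of the threshold or, for counts, stayed within the set range, and 11 did not. The range set for counts was wide. Over all genes, 1271 called with the minimum FPKM and 1311 without GOF replicate 0, against 1906, were still within it. The number called among the 9 was 3 to 5: 3 with a minimum FPKM of 1 in 3 libraries and with limma on log2(FPKM + 1), and 5 with no filter, where Rspo4 was added, and with limma on log2(FPKM + 0.1), where Lgr6 was added at 1.24 (adjusted p = 0.00841 from limma). Rnf43 fell below the fold threshold only with limma on log2(FPKM + 1), at 0.59, and could not be tested with the minimum FPKM. Rspo2, Rspo3 and Lgr4 were called under each alternative. The log2 fold change of Lgr5 turned positive with the replicate block by animal (0.36), without Control replicate 2 (0.16) and without GOF replicate 1 (0.23), with a range of -0.31 to 0.23 over the libraries left out, and was not called in any fit. With a replicate block by label number and by animal, 4 of the 9 were called, and 1421 and 2008 of all genes, where the fit without a block called 1906. The block by animal left 1 residual degree of freedom and changed no call of the 9. With limma on log2(FPKM + 1), 877 genes were called (481 higher and 396 lower), 3 Frizzled and Lrp receptors and 7 feedback genes. With the minimum FPKM, 7 feedback genes were called, since 7 were tested. Fragments in place of FPKM, an alternative chosen after seeing the data, gave differences in log2 ratio of 1.46 for Lgr5 to Lgr4 and 2.47 for Lgr6 to Lgr4, where FPKM gave 1.45 and 3.20. Leaving out a library gave 4 to 6 Frizzled and Lrp receptors called. The median log2 fold change of all genes lay between -0.07 and 0.001 under every setting. Apart from the minimum FPKM, where fewer genes were tested, the cause of these changes was not tested. Few fragments were counted for Rspo1, Rspo4 and the controls of Rnf43, which limits what can be read from their values.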
